A study of Mus musculus with 15 samples.

Results

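The genes described here are the nuclear genes for subunits of the mitochondrial respiratory chain and ATP synthase, followed in mouse cortex across 2 genotypes and 3 ages. They were chosen by symbol and by level: every gene whose symbol starts with Ndufa, Ndufb, Ndufc, Ndufs, Ndufv, Sdh, Uqcr, Cox4, Cox5, Cox6, Cox7, Cox8 or Atp5, without symbols ending in ps, entered if its mean over 15 libraries reached 1 CPM (reads counted for the gene per 1000000 counted in the library). This gave 94 of the 37991 genes in the count table, out of 101 genes with such symbols, and 7 further symbols were left out for their ps ending. By the symbols, 37 of the 94 belong to complex I, 4 to complex II, 8 to complex III, 16 to complex IV and 17 to complex V, and the remaining 12 are assembly factors (Ndufaf and Sdhaf genes) that share the prefixes. Ndufa4 and Ndufa4l2 were placed with complex IV, where the Ndufa4 protein is now assigned. Atp5s, listed as Dmac2l in RefSeq, is counted with complex V by its older symbol alone.

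The libraries came from cortex of C57BL/6J mice that were either 5XFAD or non-transgenic controls (WT). At 3 months of age each genotype had 2 libraries, at 6 months each had 3, and at 12 months WT had 2 and 5XFAD 3. 5XFAD mice carry human transgenes with mutations of familial Alzheimer's disease, driven in neurons by the Thy1 promoter, which makes them a model of amyloid deposition and not of the whole disease. The labels do not say that each library came from a separate mouse, so p-values only reflect how far these libraries scatter, which may be partly technical.

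The libraries held 105.2 to 226.7 M counts, where M stands for 1000000 (median 164.9 M), and the 94 genes took 0.788% to 0.878% of them. Thy1, whose promoter drives the transgenes, lay at 552 to 699 CPM in the 7 WT libraries and reached 2051 to 2635 CPM with the transgene (8 libraries), without overlap. The excitatory neuron genes Slc17a7 and Camk2a were at 1020 CPM or more in each library. RNA of neighbouring tissue was high in 4 libraries: the striatal receptor gene Drd2 reached 55.1 CPM in WT 3-month replicate 1 and 36.5 CPM in 5XFAD 12-month replicate 3, and Ttr of the choroid plexus reached 584 and 3721 CPM in 5XFAD 6-month replicates 1 and 2. Sex was not balanced either: by sex-linked transcripts, replicate 1 of each group that has one was male and all other libraries were female, and neither WT library at 12 months was male. In bulk cortex, fewer cells of a type and less RNA per cell cannot be told apart.

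Complexes I to IV pass electrons from NADH and succinate to oxygen and pump protons at complexes I, III and IV, and complex V uses the proton gradient to make ATP. Most subunits are encoded in the nucleus and imported, while a small set of core subunits is encoded by mitochondrial DNA, so assembly needs both genomes. In the brain this pathway supplies most of the ATP for ion pumping and synaptic transmission, and many nuclear subunit genes have sites for nuclear respiratory factor 1 (NRF1) and the ETS factor GABP in their promoters.

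RefSeq promoter windows (build GRCm38.p6) were found for 77 of the 94 genes, in 82 windows, and their 250 bases upstream of the start were searched on both strands for GCGCN followed by TGCGC (NRF1), CCGGAAG (ETS factors) and CCAAT. The NRF1 letters were in 15 of the 82 windows (18.3%) against 3.74% of all 32851 windows, the ETS letters in 16 (19.5%) against 6.91%, and CCAAT in 34 (41.5%) against 33.8%. A window held the NRF1 or the ETS letters in 34.1% of cases for these genes and in 10.1% for all genes. The promoters below are shown because they span this range: Cox6a1, a widely expressed complex IV isoform with all 3 motifs, Sdha and Ndufb4 with 3 NRF1 matches each, Atp5b, the gene of highest CPM, with 5 CCAAT matches and neither of the others, and the low-level isoform Cox6b2 with CCAAT alone. Capitals mark the matches, and each sequence is written along the gene's own strand.
Cox6a1 (chr5:115348959-115349208, minus strand): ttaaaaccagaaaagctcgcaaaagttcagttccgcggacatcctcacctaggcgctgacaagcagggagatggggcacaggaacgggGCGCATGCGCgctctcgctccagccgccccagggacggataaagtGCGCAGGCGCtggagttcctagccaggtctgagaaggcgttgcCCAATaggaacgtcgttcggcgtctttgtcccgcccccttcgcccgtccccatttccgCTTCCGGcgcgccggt
Sdha (chr13:74350241-74350490, minus strand): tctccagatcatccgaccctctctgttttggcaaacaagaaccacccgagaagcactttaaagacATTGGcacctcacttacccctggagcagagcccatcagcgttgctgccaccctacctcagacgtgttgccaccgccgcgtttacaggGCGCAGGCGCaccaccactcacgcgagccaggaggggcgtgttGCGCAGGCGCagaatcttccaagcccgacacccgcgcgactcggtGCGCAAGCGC
Ndufb4 (chr16:37654369-37654618, minus strand): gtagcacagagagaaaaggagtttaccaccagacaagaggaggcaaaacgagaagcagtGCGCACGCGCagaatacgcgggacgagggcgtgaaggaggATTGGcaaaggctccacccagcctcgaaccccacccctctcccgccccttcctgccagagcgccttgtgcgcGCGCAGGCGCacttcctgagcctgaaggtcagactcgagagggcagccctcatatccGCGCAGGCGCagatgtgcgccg
Atp5b (chr10:128083057-128083306, plus strand): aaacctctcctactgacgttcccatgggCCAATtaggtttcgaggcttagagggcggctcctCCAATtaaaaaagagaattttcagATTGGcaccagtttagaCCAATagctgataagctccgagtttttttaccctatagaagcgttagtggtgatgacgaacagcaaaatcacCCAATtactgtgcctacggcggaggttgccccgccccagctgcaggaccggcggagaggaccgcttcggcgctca
Cox6b2 (chr7:4753095-4753344, minus strand): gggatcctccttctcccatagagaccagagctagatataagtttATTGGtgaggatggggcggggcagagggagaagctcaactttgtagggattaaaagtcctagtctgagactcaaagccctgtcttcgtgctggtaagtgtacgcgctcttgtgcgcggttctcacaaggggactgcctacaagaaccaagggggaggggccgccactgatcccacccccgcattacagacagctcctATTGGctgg
A match is a string of letters and not a measured site, and it was not set against any change in expression.

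The level of the genes spanned a wide range once divided by exon length. In complex IV Cox8a was the highest of all 94 at 409 CPM per kb of exon, followed by Cox6a1 at 255, Cox4i1 at 185 and Cox6b1 at 185, while Cox6a2 was at 7.39, Ndufa4l2 at 1.99, Cox4i2 at 1.46 and Cox6b2 at 1.28. In complex V the catalytic beta subunit Atp5b and the alpha subunit Atp5a1 were at 234 and 231 CPM per kb, and the proteolipid (c ring) genes Atp5g3, Atp5g1 and Atp5g2 were at 69.8, 17.5 and 15.2. Complex II ran from Sdhc at 18.9 to the flavoprotein Sdha at 92.5, complex III from Uqcrq at 32.3 to Uqcr10 at 94.7, and complex I from Ndufb2 at 3.44 to Ndufb9 at 88.5. Assembly factors, which are needed to build the complexes and are not part of them, lay between 1.12 for Sdhaf1 and 12.3 CPM per kb for Ndufaf1. Exon length was the union of all annotated exons of a gene, which lowers the value of genes with long rare transcripts. Near-identical processed copies of many of these genes exist, and how reads shared with them were counted is not given in the sources used here, so levels of single genes are uncertain to that extent.

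**Figure D1:**
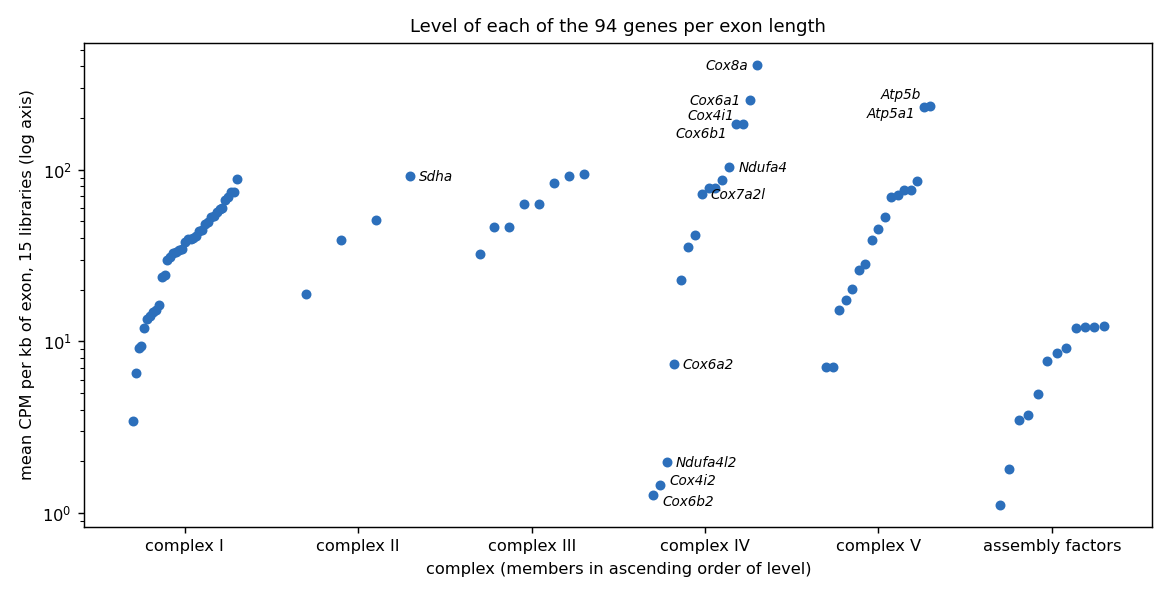
Mean CPM per kb of exon over the 15 libraries (log axis) for each of the 94 genes, 1 point a gene, in ascending order within each complex and the assembly factors. Cox8a is highest at 409, and the isoforms Ndufa4l2, Cox4i2 and Cox6b2 lie near 1 to 2, far below Cox4i1 and Cox6b1 at 185.

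The minimum of 1 CPM chose the genes by level, so the levels near it are a description. Just inside were Cox4i2 at 1.15, Cox6b2 at 1.43 and Ndufa4l2 at 2.18 CPM, and just outside were Cox7a1 at 0.925, Cox6c2 at 0.637 and Cox8b at 0.337 CPM (per total count). Cox7a1 and Cox8b are the forms found in heart and skeletal muscle. All 94 genes passed the separate minimum count for the test.

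Levels across the 6 groups were narrow. The ratio of the highest to the lowest group mean had a median of 1.10 over the 94 genes, and 90 of them stayed within 1.25-fold, against a median of 1.22 and 56.6% of genes among all 15041 tested genes whose mean reached 1 CPM. Among genes of at least 10 CPM, 85 of 86 respiratory chain genes stayed within 1.25-fold, against 70.2% of all 10197. Only Cox6b2 (2.26-fold) and Cox6a2 (1.76-fold) reached 1.5-fold, and Cox4i2 (1.28) and Cox5a (1.26) were the other genes outside 1.25-fold. The spread between libraries of a group was also small, with a median coefficient of variation of 5.48% against 9.71% for all tested genes of at least 1 CPM. Among genes of at least 10 CPM it was 5.23% against 7.89%.

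Averaged over genes as the mean of log2(CPM + 1), the whole set ranged from 5.61 in 5XFAD 12-month replicate 2 to 5.75 in WT 12-month replicate 3. At 3 months the WT libraries were at 5.68 and 5.64 and both 5XFAD libraries at 5.66. At 6 months the WT libraries were at 5.71, 5.69 and 5.68 and the 5XFAD libraries at 5.75, 5.71 and 5.66. At 12 months the WT libraries were at 5.71 and 5.75 and the 5XFAD libraries at 5.72, 5.61 and 5.69. The genotypes overlapped at every age, and at 12 months 5XFAD replicate 2 was below the others. That library was also lowest for complexes I, III and V, the assembly factors and the mitochondrially encoded subunits.

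**Figure D2:**
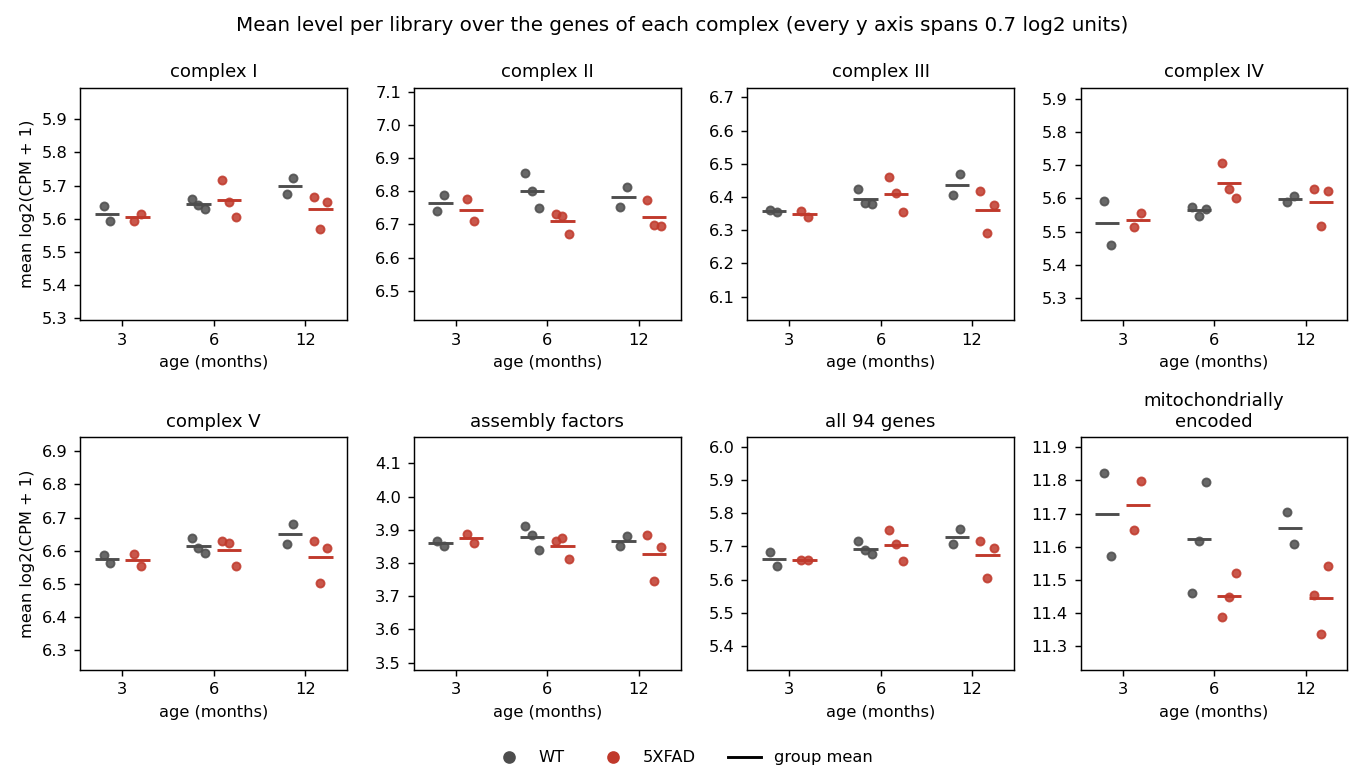
Mean log2(CPM + 1) per library (points) and per group (bars) for each complex, the assembly factors, all 94 genes and the 13 mitochondrially encoded subunits, by age and genotype. The genotypes overlap at most ages and in most panels; they do not at 6 months for complex II (WT 6.75 to 6.85, 5XFAD 6.67 to 6.73) and complex IV (WT 5.55 to 5.57, 5XFAD 5.60 to 5.71), nor at 12 months for complex I (WT 5.67 and 5.72, 5XFAD 5.57 to 5.66) and the mitochondrially encoded subunits.

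The first question of the design is whether 5XFAD and WT cortex differ at each age. None of the 94 genes was called at 3, 6 or 12 months or in the average of the 3 ages by edgeR's quasi-likelihood test at a Benjamini-Hochberg adjusted p below 0.05 over 21555 tested genes, where 0.00464%, 1.94%, 3.06% and 4.04% of all genes were called. At an unadjusted p below 0.05 the counts were 0, 3, 5 and 5 of 94, against 2.31%, 12.7%, 18.6% and 18.6% of all genes. DESeq2 called 0 of 94 at 3 months (0.0464% of all genes) and 1, Cox6a2, at 6 months, at 12 months and in the average, where it called 4%, 7.07% and 7.58% of all genes. The 95% intervals show how large a difference could have been missed: they lay within 0.5 log2 units of 0 (1.41-fold) for 89, 90, 88 and 92 of the 94 genes, with a median half-width of 0.19, 0.15, 0.17 and 0.10.

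At 3 and 6 months the differences were spread on both sides of 0. The median log2 difference was -0.00094 at 3 months, with 47 genes higher and 47 lower in 5XFAD, and -0.0035 at 6 months, with 46 higher and 48 lower. Over all tested genes it was -0.0030 and 0.0061. Libraries of the genotypes did not overlap for 11 genes higher and 9 lower at 3 months, where 13.3% and 11.4% of all genes did so, and for 11 higher and 5 lower at 6 months, where 10.4% and 7.84% did.

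At 12 months 80 of the 94 genes had a lower estimate in 5XFAD and 14 a higher one, with a median log2 difference of -0.07, against 0.02 and 46.3% lower estimates over all tested genes. The libraries did not overlap for 28 genes that were lower and 3 that were higher, where 17.3% and 21.7% of all genes did so. The shift was similar in size over the complexes, with medians of -0.07 for complex I (33 of 37 lower), -0.07 for complex II (4 of 4), -0.07 for complex III (8 of 8), -0.06 for complex IV (13 of 16) and -0.06 for complex V (16 of 17), and -0.03 for the assembly factors (6 of 12). The genes vary together across libraries, so these counts are not independent pieces of evidence, and no gene in them passed the adjusted threshold. The median was -0.12 without WT replicate 2 and -0.06 without WT replicate 3 or without 5XFAD replicate 2. It was -0.02, with 35 genes higher, when libraries were scaled by their totals alone, a scaling that moved the median of all genes to 0.07.

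**Figure D3:**
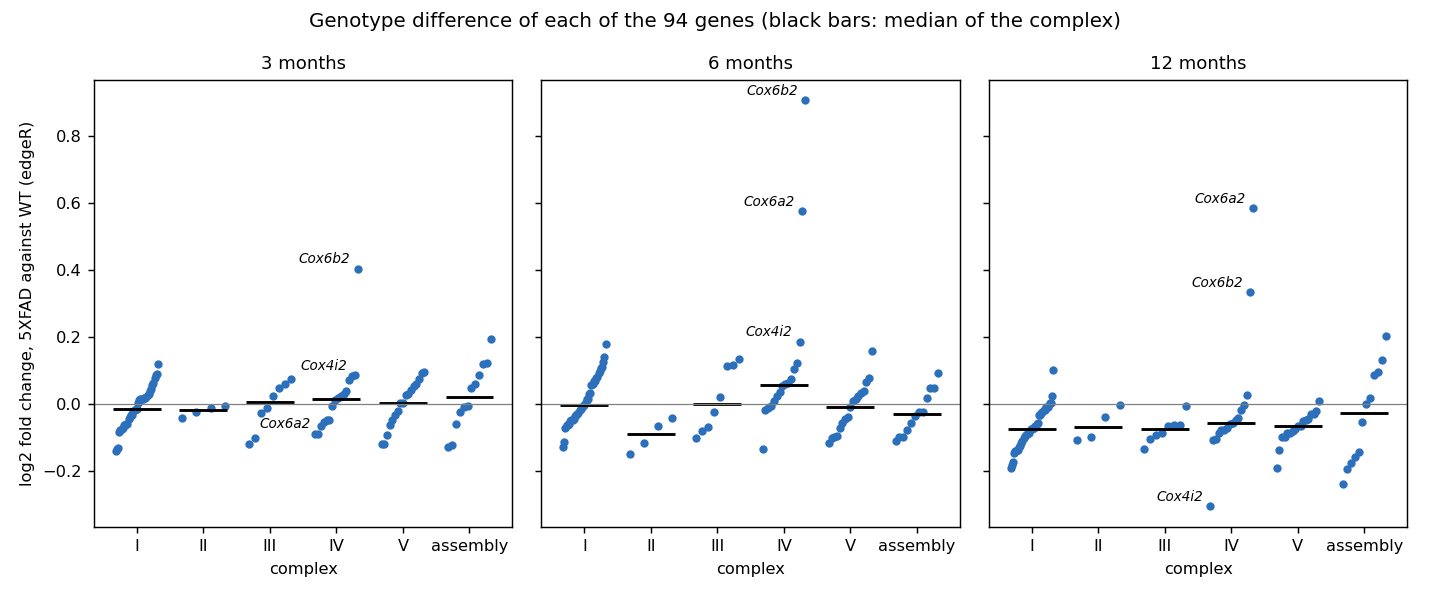
The edgeR log2 fold change of 5XFAD against WT for each of the 94 genes (points, ascending within each complex or the assembly factors), at 3, 6 and 12 months, with the median of each complex as a black bar. Most genes lie within 0.2 of 0 at all ages, the bars are below 0 at 12 months, and Cox6a2 lies at 0.58 at 6 and 12 months.

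Sums of several cell type marker lists differed over the same comparison. The 7 excitatory neuron genes summed at 12 months to 6462 to 6961 CPM in WT, against 4871 to 5917 CPM in 5XFAD, without overlap, with a median log2 difference of -0.30 and 7 of 7 estimates lower. By edgeR 0 of the 7 were called (3 at an unadjusted p below 0.05, 2 by DESeq2). The 9 microglia genes summed to 274 to 308 CPM in WT, against 699 to 1083 CPM in 5XFAD, with 7 of 9 called higher. The 6 astrocyte genes summed to 3136 to 3303 CPM in WT, against 4384 to 5553 CPM in 5XFAD, without overlap, with a median log2 difference of 0.35, 1 of 6 called higher by edgeR and 3 by DESeq2. The 6 oligodendrocyte genes summed to 1874 to 4364 CPM in WT, against 4010 to 7938 CPM in 5XFAD, with overlap, a median log2 difference of 1.04 and 0 called by edgeR or DESeq2 (6 higher at an unadjusted p below 0.05). The 7 inhibitory neuron genes overlapped, at 767 to 859 CPM in WT against 792 to 841 CPM in 5XFAD, with a median log2 difference of 0.04 and 0 called by edgeR or DESeq2 (1 higher at an unadjusted p below 0.05). Their part in the lower estimates of the respiratory chain genes was not tested.

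Complex I takes electrons from NADH, and its accessory subunits Ndufc2 and Ndufb4 had the smallest p of the complex at 12 months. Ndufc2 was at 54.9 and 57.2 CPM in WT and at 52.4, 44.1 and 51.7 CPM in 5XFAD, a log2 difference of -0.18 ± 0.07 (SE, edgeR adjusted p = 0.21). Ndufb4 was at 18.7 and 20.4 CPM in WT and at 17.5, 16.1 and 17.7 CPM in 5XFAD, a log2 difference of -0.19 ± 0.08 (SE, edgeR adjusted p = 0.22). For both genes the groups did not overlap, and the WT libraries at 12 months were above those of younger WT mice: Ndufc2 lay between 47.7 and 50.9 CPM and Ndufb4 between 16.7 and 18.5 CPM in the 5 WT libraries of 3 and 6 months. Ndufa1, a small subunit of the membrane arm, was at 27.2, 28.6 and 27.6 CPM in WT and 31.9, 32.2 and 30.3 CPM in 5XFAD at 6 months (log2 difference 0.18 ± 0.08 SE, edgeR adjusted p = 0.35), and the groups overlapped at 3 months and at 12 months, where it was at 29.1 and 28.1 CPM in WT and 27.8, 27.2 and 32.3 CPM in 5XFAD.

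Complex II is succinate dehydrogenase, which also works in the TCA cycle and has no mitochondrially encoded subunit. All 4 of its genes had lower estimates in 5XFAD at each age. Sdhb, the iron-sulfur subunit, was at 95.6, 91.5 and 88.3 CPM in WT and 86.7, 79.6 and 82.4 CPM in 5XFAD at 6 months, without overlap, a log2 difference of -0.15 ± 0.06 (SE, edgeR adjusted p = 0.28). At 12 months Sdhb was at 87.2 and 94.4 CPM in WT and 86.3, 83.4 and 83.4 CPM in 5XFAD, again without overlap and not called (-0.11 ± 0.06, edgeR adjusted p = 0.40). Averaged over the ages Sdhb differed by -0.10 ± 0.04 (edgeR adjusted p = 0.17), while Sdha, Sdhd and Sdhc, the flavoprotein and the membrane anchors, had averages of -0.06, -0.06 and -0.02.

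Complex III passes electrons from ubiquinol to cytochrome c. Its Rieske iron-sulfur subunit Uqcrfs1 was at 84.7 and 90.0 CPM in WT and 83.3, 75.8 and 80.0 CPM in 5XFAD at 12 months, a log2 difference of -0.13 ± 0.08 (SE, edgeR adjusted p = 0.41). The core subunit Uqcrc1, the complex III gene of highest CPM, was at 199 and 214 CPM in WT and 203, 191 and 182 CPM in 5XFAD at 12 months, with overlap. In complex V, the delta subunit gene Atp5d was at 152 and 147 CPM in WT and 138, 121 and 134 CPM in 5XFAD at 12 months, without overlap and not called (-0.19 ± 0.09, edgeR adjusted p = 0.27). Atp5o, a subunit of the peripheral stalk, was at 111 and 112 CPM in WT and 105, 95.9 and 102 CPM in 5XFAD, also without overlap (-0.14 ± 0.07, edgeR adjusted p = 0.30). Atp5b overlapped between genotypes, at 997 and 1091 CPM in WT and 1033, 978 and 919 CPM in 5XFAD. Among assembly factors, Ndufaf3, which acts early in complex I assembly, was at 24.6 and 22.9 CPM in WT and 20.8, 19.8 and 21.7 CPM in 5XFAD at 12 months (-0.19 ± 0.08, edgeR adjusted p = 0.23). Ndufaf5, another complex I assembly factor, was at 23.7 and 22.9 CPM in WT and 21.0, 20.7 and 21.0 CPM in 5XFAD (-0.16 ± 0.08, edgeR adjusted p = 0.35). For both the groups did not overlap. Sdhaf2, a complex II assembly factor, overlapped, with 5XFAD libraries from 33.2 to 38.5 CPM on either side of both WT libraries.

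Complex IV reduces oxygen and has several subunits with tissue-specific isoforms. Cox6a2 is the subunit 6a form of heart and skeletal muscle, known in brain from parvalbumin interneurons, and it was the 1 gene of the 94 that edgeR called in any comparison. It was at 4.58 and 3.58 CPM in WT and 3.47 and 4.21 CPM in 5XFAD at 3 months. At 6 months it was at 4.51, 3.99 and 3.65 CPM in WT and 6.91, 4.86 and 6.31 CPM in 5XFAD. At 12 months it was at 4.15 and 4.88 CPM in WT and 7.77, 6.62 and 5.90 CPM in 5XFAD. The groups overlapped at 3 months and not at 6 or 12 months, where every 5XFAD library was above every WT library.

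The log2 difference of Cox6a2 between genotypes was -0.09 ± 0.20 (SE) at 3 months, 0.58 ± 0.17 at 6 months (edgeR adjusted p = 0.12, DESeq2 0.034) and 0.58 ± 0.19 at 12 months (edgeR adjusted p = 0.12, DESeq2 0.0498), so it was called by DESeq2 and not by edgeR. Within 5XFAD it rose from 3 to 12 months by 0.82 ± 0.19 log2 units (95% interval 0.41 to 1.22, edgeR adjusted p = 0.046), the 1 call among the 94 genes in that comparison, where edgeR called 1.89% of all genes. DESeq2 called it as well (adjusted p = 0.0017, 6.78% of all genes called), and 16.4% of all genes had an unadjusted edgeR p below 0.05 against 1 of the 94. Leaving out any 1 of the 5 libraries ended this call, with an adjusted p of 0.071 to 0.22 and a log2 difference of 0.65 to 0.95. Without either 3-month library no gene of the whole table was called, and normalization by DESeq2's size factors gave an adjusted p of 0.053. In WT the same comparison gave 0.14 ± 0.20 (edgeR adjusted p = 0.96). The genotype difference at 12 months exceeded that at 3 months by 0.67 ± 0.28 (edgeR adjusted p = 0.43), so a difference between the ages was not shown. Without the 4 libraries rich in neighbouring tissue the rise within 5XFAD was 0.90 (edgeR adjusted p = 0.038), and with sex as a covariate it was 0.83 (edgeR adjusted p = 0.024). The genotype difference at 12 months fell from 0.58 to 0.51 with sex as a covariate (edgeR adjusted p = 0.11). With terms for each age and replicate number it fell to 0.47 (edgeR adjusted p = 0.20). At 6 months these fits gave 0.57 and 0.56 (edgeR adjusted p = 0.069 and 0.14).

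Cox6a2 lies next to microglial integrin genes: in RefSeq gene order it follows Itgam, Itgax and Itgad, and in the GENCODE annotation, which is of a later build than the authors used, Itgad overlaps it on the opposite strand. Whether strand was used in counting is not given in the sources used here, so reads of such a pair may not be told apart. Itgad itself was at 0.44 CPM or less in every library. At 12 months it was at 0.10 and 0.12 CPM in WT and 0.42, 0.42 and 0.28 CPM in 5XFAD, without overlap. Its log2 differences were -0.11 ± 0.74, 0.72 ± 0.59 and 1.73 ± 0.71 (SE) at 3, 6 and 12 months (edgeR adjusted p = 0.67 at 6 and 0.21 at 12 months). Those of Itgam were 0.24 ± 0.34, 1.09 ± 0.28 and 1.24 ± 0.32 (edgeR adjusted p = 0.086 at 6 and 0.066 at 12 months). Itgax was between 0.09 and 0.56 CPM in WT and at 2.96 and 2.32, then 12.4, 16.1 and 42.5, then 29.3, 52.3 and 54.0 CPM in 5XFAD at 3, 6 and 12 months. On the other side of Cox6a2 in RefSeq gene order lie 9130023H24Rik, Armc5 and Tgfb1i1. For Tgfb1i1 the log2 difference was 0.17 ± 0.25 (SE) at 3 months. Its estimates were lower in 5XFAD at 6 months (-0.14 ± 0.20, edgeR adjusted p = 0.83) and at 12 months (-0.21 ± 0.22, edgeR adjusted p = 0.66), with overlap. Armc5 was at 13.4, 13.2 and 13.6 CPM in WT and 15.3, 15.5 and 16.3 CPM in 5XFAD at 6 months, and at 13.7 and 14.4 against 15.5, 16.5 and 16.6 CPM at 12 months. These libraries did not overlap, with log2 differences of 0.23 ± 0.07 (SE, edgeR adjusted p = 0.13) and 0.20 ± 0.07 (SE, edgeR adjusted p = 0.17), and 0.01 ± 0.08 at 3 months. For 9130023H24Rik, at most 4.18 CPM in every library, the log2 differences were 0.30 ± 0.17 at 6 months, with overlap, and 0.45 ± 0.20 at 12 months, without overlap (SE, edgeR adjusted p = 0.52 and 0.24). The 4 parvalbumin-cell genes summed at 12 months to 424 to 492 CPM in WT, against 387 to 460 CPM in 5XFAD, with overlap and 0 of 4 called by edgeR or DESeq2 (0 at an unadjusted p below 0.05). The 4 muscle genes summed to 7.9 to 11.1 CPM over all libraries, most of it from Acta1 (6.05 to 9.85 CPM), with Ckm and Mb at no more than 0.504 CPM. The part of these genes in the Cox6a2 result was not tested.

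**Figure D4:**
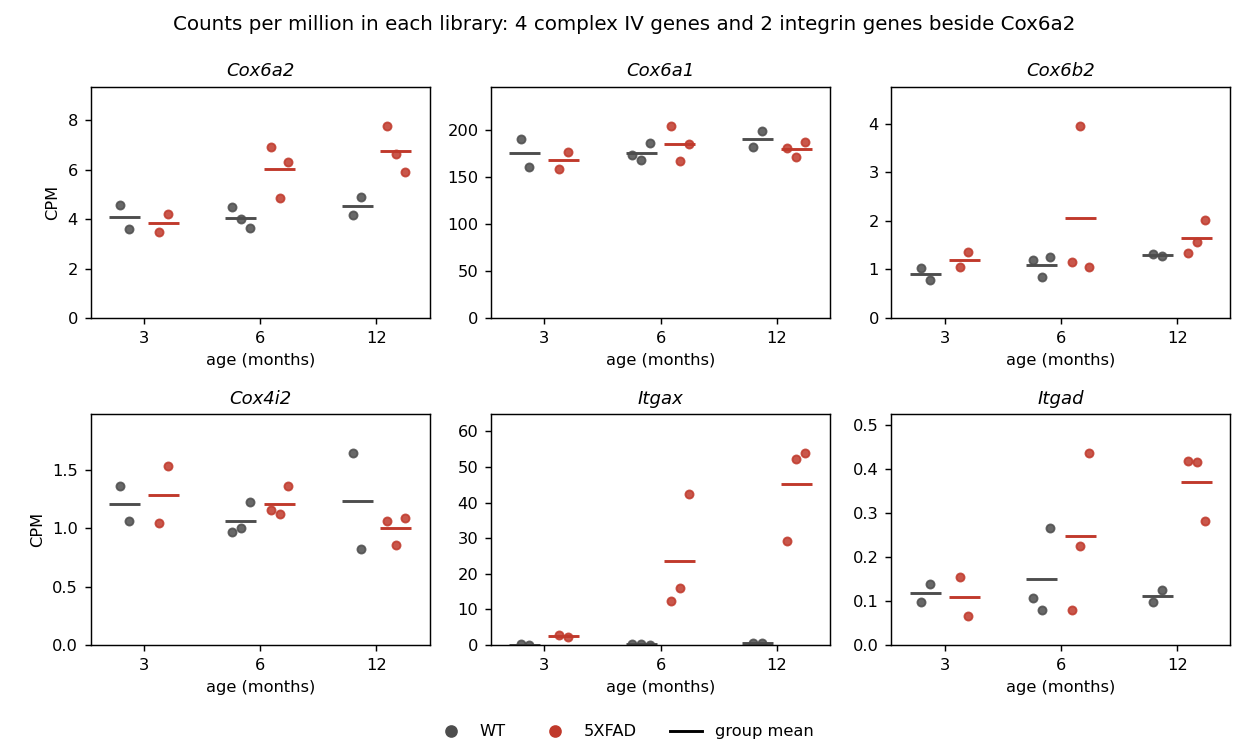
CPM in each library (points) and group means (bars) by age and genotype for the complex IV genes Cox6a2, Cox6a1, Cox6b2 and Cox4i2 and for Itgax and Itgad, which lie beside Cox6a2. Cox6a2 is higher in every 5XFAD library at 6 and 12 months, Cox6a1 overlaps, and the single high point of Cox6b2 is 3.96 CPM.

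Cox6a1, the form of most tissues, was at 182 and 199 CPM in WT and 180.4, 171 and 186 CPM in 5XFAD at 12 months, a log2 difference of -0.08 ± 0.10 (SE, edgeR adjusted p = 0.70). Cox6b2, the testis-type form of subunit 6b, was at 3.96 CPM in 5XFAD 6-month replicate 2 and between 0.79 and 2.02 CPM in all other libraries. That replicate is the library with 3721 CPM of Ttr, and without it the log2 difference at 6 months went from 0.91 ± 0.42 (edgeR adjusted p = 0.40) to 0.00085. At 3 months Cox6b2 was at 1.03 and 0.79 CPM in WT and at 1.04 and 1.37 CPM in 5XFAD, a log2 difference of 0.40 ± 0.51 (SE, edgeR adjusted p = 1). At 12 months it was at 1.33 and 1.28 CPM in WT and at 1.34, 1.57 and 2.02 CPM in 5XFAD, a log2 difference of 0.33 ± 0.47 (SE, edgeR adjusted p = 0.76). The libraries did not overlap at either of these ages, by a narrow margin, and whether Cox6b2 and Cox6a2 differed in their response was not tested. Cox4i2, the form of subunit 4 found in lung and linked to low oxygen, lay between 0.83 and 1.65 CPM, and Ndufa4l2, also induced by low oxygen, between 1.53 and 2.78 CPM, with the genotypes overlapping at 12 months for both. Cox4i1, Cox8a, Cox6b1 and Cox7a2 had log2 differences of -0.05, -0.10, -0.06 and -0.11 at 12 months, and Cox7a2l, which links complexes III and IV into supercomplexes, had 0.03.

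The second question is whether the genes change with age within a genotype. In WT 0 of 94 were called by edgeR from 3 to 6, from 6 to 12 or from 3 to 12 months, where 0%, 0% and 0.00464% of all genes were called, and DESeq2 called none of the 94 either (0.158%, 0.00928% and 0.125% of all genes). The steps from 3 to 6 and from 6 to 12 months in WT each had 1 of 94 at an unadjusted p below 0.05 (Cox5a and Ndufc2, both higher), against 5.28% and 4.75% of all genes. From 3 to 12 months the median log2 difference in WT was 0.08 with 78 of 94 estimates above 0, against -0.01 over all tested genes, and 4 of the 94 genes had an unadjusted p below 0.05 against 5.83% of all genes (Ndufc2, Ndufa6 and Ndufb4 higher, Ndufaf4 lower). In 5XFAD the median from 3 to 12 months was 0.01 with 53 of 94 above 0. From 3 to 6 months in 5XFAD edgeR called 0 of 94 (0.158% of all genes) and DESeq2 called 1, Cox6a2 (5.94% of all genes), with 3 of 94 at an unadjusted p below 0.05 against 17.6%. From 6 to 12 months in 5XFAD neither tool called any, where edgeR called 0.00464% and DESeq2 0.687% of all genes, and 0 of 94 had an unadjusted p below 0.05 against 6.66%. These comparisons share their groups with the genotype comparisons, so the values at 12 months are not separate evidence.

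Cox5a, which with Cox4i1 forms part of the core next to the catalytic subunits, shows how far a single gene moved in WT. It was at 44.2 and 43.3 CPM at 3 months, at 59.8, 55.0 and 50.3 CPM at 6 months and at 43.9 and 49.7 CPM at 12 months, so the 6-month libraries were above all others. The log2 difference from 3 to 6 months was 0.33 ± 0.12 (SE, edgeR adjusted p = 0.86). No test of a difference between the genotype effects at 2 ages called any of the 94 genes by edgeR or DESeq2. Over all genes edgeR called 0% in each of the 3 tests and DESeq2 called 0.288% for 6 minus 3 months, 0% for 12 minus 6 and 1.04% for 12 minus 3. At an unadjusted p below 0.05 edgeR gave 2, 2 and 1 of the 94 genes, against 5.39%, 3.17% and 10.4% of all genes.

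Genes that work with these subunits were read from fixed lists. The 13 mitochondrially encoded subunits, the core of complexes I, III, IV and V, summed at 12 months to 62875 to 67347 CPM in WT, against 52289 to 59502 CPM in 5XFAD, without overlap. They had a median log2 difference of 0.03 at 3 months, -0.18 at 6 months and -0.20 at 12 months, with 13 of 13 estimates lower at 6 and 12 months, but 0 of 13 were called by edgeR or DESeq2 at any age (0, 3 and 2 at an unadjusted p below 0.05). The medians of the nuclear genes were nearer to 0 at both later ages. The 13 transcripts are cut from shared precursors and were measured in the same libraries, so they do not count as 13 separate results, and the difference between the nuclear and mitochondrial genes was not tested.

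Among 11 regulators of mitochondrial gene expression, which include Nrf1, Gabpa, Ppargc1a and Tfam, 0 were called by edgeR at any age (1 at an unadjusted p below 0.05, at 12 months), with medians of -0.04, -0.04 and -0.01. The exception at the unadjusted level was Gabpa, the DNA-binding subunit of the ETS factor GABP. It was at 17.7 and 18.2 CPM in WT and 20.4, 24.2 and 24.6 CPM in 5XFAD at 12 months, without overlap, a log2 difference of 0.36 ± 0.10 (SE, edgeR adjusted p = 0.081), and it was the 1 regulator DESeq2 called. Nrf1 and Ppargc1a had log2 differences of 0.05 and 0.08 at 12 months. Of 33 tested carrier and other assembly genes (cytochrome c, Surf1, Sco1 and the like), 0 were called by edgeR or DESeq2, with medians of -0.02, -0.02 and -0.09 and 0, 1 and 5 at an unadjusted p below 0.05. Of 16 TCA cycle and pyruvate dehydrogenase genes, 0 were called at any single age by either tool, with medians of -0.05, -0.08 and -0.10 and 0, 1 and 1 at an unadjusted p below 0.05.

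**Figure D5:**
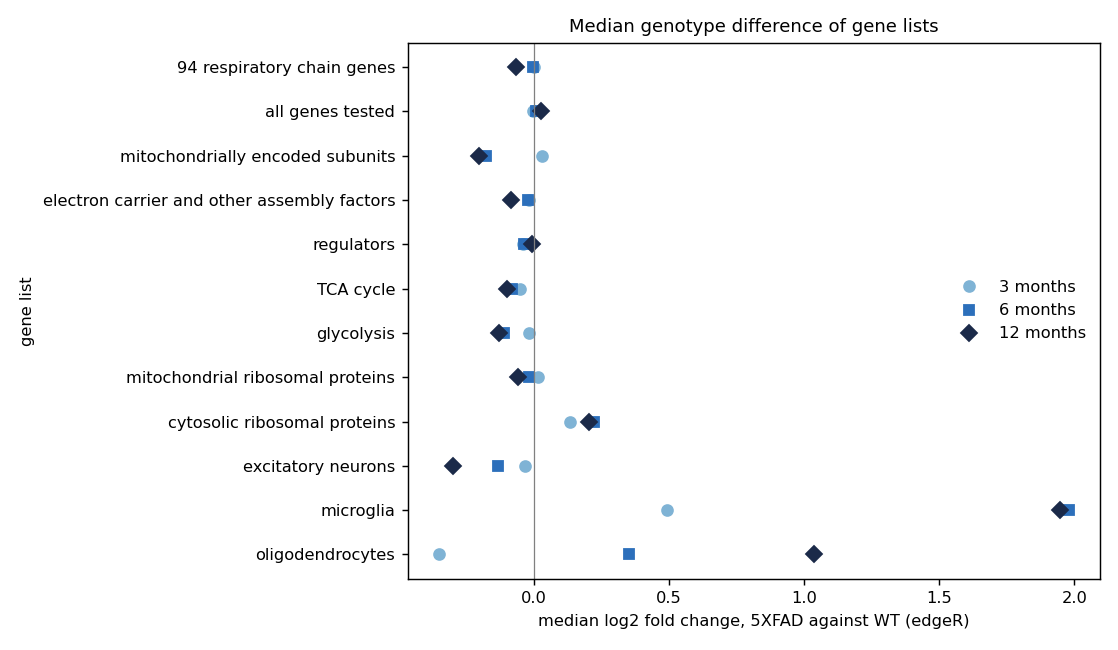
Median edgeR log2 fold change of 5XFAD against WT for the 94 respiratory chain genes, all tested genes and 10 gene lists, at 3, 6 and 12 months. The respiratory chain genes stay between -0.07 and 0, the mitochondrially encoded subunits reach -0.20 and the excitatory neuron genes -0.30, and the microglia genes reach 1.98.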

How the data were processed

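RNA of cortex was sequenced in 15 libraries, per the labels' protocols with a stranded total RNA kit after removal of ribosomal RNA, while the molecule field reads polyA RNA. The authors deposited raw read counts per Ensembl mouse gene, not normalized. The submitters' processing notes name CASAVA, STAR and BWA and the build mm9, with no versions; the counting program, annotation and use of strand are not given in the sources used here. Symbols matched 32919 of 37991 gene IDs. Groups come from the sample titles.

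Counts were fitted with edgeR 4.0.16 (R 4.3.3; TMM scaling, robust quasi-likelihood, 1 coefficient for each of the 6 groups), keeping 21555 genes by filterByExpr (minimum count 10, minimum total 15) and adjusting p over all of them (threshold 0.05). CPM are per TMM-scaled library, and intervals are 95%. DESeq2 1.42.0 and other scalings, filters, covariates and left-out libraries were alternatives. The fit was tested on simulated data. Exon lengths come from GENCODE and promoter windows from RefSeq, both of GRCm38.

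The 94 genes and all gene lists were chosen with earlier results of these data known. Genes named are those called in any comparison, the highest-level gene and the 2 of smallest p at 12 months in each complex, the tissue isoforms, the Sdh genes and those next to the level minimum; others (such as Ndufa1, Cox5a, Gabpa, Itgax) were chosen after their values were seen. A gene that this rule picks in complex I is not reported here. Deviations from group means of same-numbered libraries correlated at 0.60, 0.21 and 0.19 for the pairs at 6 months, all over the limit of 0.1 for treating numbers as pairs, at 0.33 at 3 months, and at -0.036 and 0.13 at 12 months. Same-numbered libraries of an age were also of the same sex. The values in the results come from the fit without the replicate block, and the block was an alternative. This was kept although the limit was passed at 3 and 6 months and for replicate 3 at 12 months. At 12 months WT has no replicate 1, so with the block 5XFAD replicate 1 adds nothing to the genotype comparison.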

Additional observations from a re-analysis of the deposited data

How the results depend on the processing

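Of the comparisons of the 94 genes, the count called by edgeR moved only for Cox6a2. DESeq2 called 1 gene where edgeR called 0 at 6 months, at 12 months, in the average over ages and from 3 to 6 months in 5XFAD, and scaling by library totals called 1 in the average. From 3 to 12 months in 5XFAD the 1 call went to 0 with DESeq2's size factors, with no filter, with only the groups compared, and in each fit that left out 1 library (0 to 0). The median log2 difference between genotypes moved to 0.041 at 3 months and -0.053 at 6 months without the libraries rich in neighbouring tissue. That fit kept only replicate 2 in WT at 3 months and only replicate 3 in 5XFAD at 6 months, so each median rests on a single library on that side. The median moved to 0.051 at 6 months, -0.019 at 12 months and 0.020 in the average with library totals, and to -0.11 at 12 months with no filter. Leaving out 1 library gave medians at 12 months of -0.12 (without WT replicate 2) to -0.058 (without WT replicate 3). Library totals moved the median of all genes to 0.03, 0.06 and 0.07 at 3, 6 and 12 months, so part of these shifts is common to all genes. In the genotype comparisons the replicate block was a term for each age and replicate number, and the number of respiratory chain genes called stayed at 0. Over all genes it called 503 higher and 56 lower at 6 months in place of 402 and 16, and 1162 and 275 at 12 months in place of 590 and 69. In the age comparisons the block was another model, with terms for the replicate number shared over the ages. That fit kept the 1 call from 3 to 12 months in 5XFAD (Cox6a2, edgeR adjusted p = 0.040). Replicate 1 was male in each group that has one, so these terms also carry sex. Of the values of single genes under alternatives, 1939 kept their call and stayed within the spread of the libraries, 74 moved by more than that, 5 gained and 8 lost a call, and none of the called ones changed sign. Groups held only 2 or 3 libraries, and the lowest count of any of the 94 genes in a library was 86 (Cox4i2).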

Other observations

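Genes for other parts of energy and protein metabolism gave these values between genotypes. The 16 glycolysis genes had medians of -0.02, -0.11 and -0.13 at 3, 6 and 12 months, with 15 of 16 estimates lower at 6 and at 12 months and 0 called by edgeR or DESeq2 (0, 1 and 2 at an unadjusted p below 0.05). The 76 mitochondrial ribosomal protein genes, which translate the mitochondrially encoded subunits, had medians of 0.01, -0.02 and -0.06, with 0 called by either tool at each age (0, 2 and 4 at an unadjusted p below 0.05). The 80 cytosolic ribosomal protein genes were on the other side of 0, with medians of 0.13, 0.22 and 0.20 and 79, 78 and 77 estimates higher in 5XFAD. In the average over ages 12 of these 80 were called higher by edgeR and 28 by DESeq2. Over all genes edgeR called 4.04% and DESeq2 7.58% in either direction, and edgeR called 762 of 21555 higher. Many ribosomal protein genes have near-identical copies, and how their reads were counted is not given in the sources used here.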
